A study of Mus musculus with 9 samples.

Results

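Expression was compared between day 5 motor neuron cultures in which the homeobox gene Cdx2 had been induced and FGF added, and day 5 motor neuron cultures without either. The comparison used 6 of the 9 arrays of the series, 3 for each kind of culture, and all probe sets annotated with 1 gene symbol. These were 34958 of 45101 probe sets and stood for 18194 genes, of which 10285 passed a filter on low levels. Both kinds of culture came from Ainv15 mouse embryonic stem (ES) cells that carry a construct for Cdx2 with a V5 tag, switched on by doxycycline. ES cells were left to form embryoid bodies and were given retinoic acid (all-trans, 1 µM) and a hedgehog agonist (0.5 µM) on day 2. The Cdx2 and FGF cultures also received 2 µg/ml doxycycline on day 3, for 6 to 8 hours per the growth protocol, and basic FGF at 100 ng/ml. That protocol also gives 100 nM retinoic acid and 100 nM hedgehog agonist together with FGF after a wash, without saying which cultures this applies to. Doxycycline, Cdx2 and FGF were given to the same cultures, so their parts in any difference cannot be told apart, and the single cell line with 1 construct limits the result to that line.

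Cdx2 is a transcription factor of the caudal embryo that binds within Hox gene clusters and acts with FGF and Wnt signals during extension of the body axis. Hox genes are ordered along their clusters, and in the spinal cord and hindbrain the first paralog groups mark rostral levels while groups 6 and above mark brachial, thoracic and lumbar levels. Retinoic acid and hedgehog signals turn neural progenitors of embryoid bodies into ventral progenitors marked by Olig2 and Nkx6-1, which give rise to motor neurons that express Mnx1, Isl1 and Lhx3.

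Levels were log2 values per probe set, and a difference below is the mean of the Cdx2 and FGF arrays minus the mean of the motor neuron arrays, ± its standard error (SE) from limma. A level under 4 was treated as not clearly above background, and a fold with any array of the dimmer group under 4 is given as "at least", with such values raised to 4. A list median "at the bound of 4" is taken after the same step. Array values are listed in the order of the replicate numbers. A call needed an adjusted p under 0.05 together with a difference of 1 or more in size, and array values are given for cultures without and then with Cdx2 and FGF. Whether the 3 arrays of a group came from separate cultures is not stated in the labels, and p-values therefore reflect array-to-array spread alone, which may be technical. Correlations over all probe sets were 0.998 between arrays of the Cdx2 and FGF cultures, 0.995 to 0.997 between motor neuron arrays and 0.963 to 0.973 between the groups. The first principal component of the tested genes held 92.6% of the variance and separated the groups. The 3 control probe sets for 18S ribosomal RNA were lower in the Cdx2 and FGF cultures by 0.10, 0.10 and 0.05 on average. The 3′ minus 5′ difference of the Gapdh controls was 0.523 in those cultures against 0.618. An exact two-sided permutation test gave a p of 0.1 for each of these, the smallest that 3 arrays against 3 allow. For the Actb and Tfrc controls the 3′ minus 5′ difference overlapped between the groups and did not reach that p.

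Of the 10285 genes tested, 1323 were called higher (12.9%) and 1043 lower (10.1%) in the Cdx2 and FGF cultures. At an unadjusted p under 0.05, 6412 genes differed, and the median difference over all tested genes was 0.06. The groups overlapped for 2 of the genes called higher and 2 called lower. A rise or fall of at least 8-fold, with values under 4 raised to 4, was found for 259 and 224 genes. Among the genes called higher, 243 had no motor neuron array over 4, and among those called lower, 198 had no Cdx2 and FGF array over 4. The filter had passed 251 genes solely through the Cdx2 and FGF arrays and 205 only through the motor neuron arrays, and these had to differ. In bulk cultures, fewer cells of a type and less RNA per cell cannot be told apart.

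**Figure D1:**
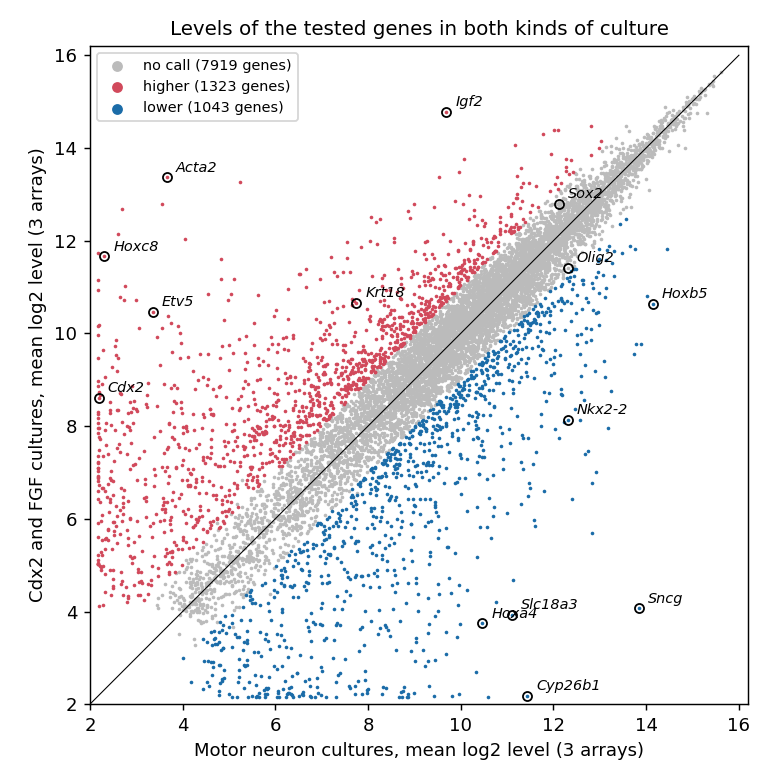
Each point is 1 of the 10285 tested genes, at its mean log2 level over the 3 motor neuron arrays (x axis) and the 3 Cdx2 and FGF arrays (y axis), on equal scales with the line of equal levels. The 1323 genes called higher and 1043 called lower lie away from that line, and circled genes are named in the text; Sox2 and Olig2 have no call.

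The induced gene separated the groups. Cdx2 read 2.17, 2.17 and 2.24 without and 8.27, 8.99 and 8.59 with Cdx2 and FGF. All 3 motor neuron arrays lay near the floor of the array values and all 3 Cdx2 and FGF arrays stood above 8, so the groups did not overlap. The difference was 6.42 ± 0.21, at least 24.5-fold higher, with an adjusted p of 6.8e-07 in limma. A second Cdx2 probe set was also called higher, by 4.07. The probe sets are not known to separate the construct's transcript from that of the endogenous gene.

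Hox genes moved in opposite directions along the paralog groups. Of the 13 genes of groups 1 to 5 with a probe set, 11 were tested and 11 were called lower, with a median difference of -3.50. Of the 10 of groups 6 to 9, 9 were tested, 7 were called higher and 1 lower, and 6 of the 9 had passed the filter only through the Cdx2 and FGF arrays. Of the 10 of groups 10 to 13, 0 passed the filter. Hoxc8, which marks the brachial to thoracic cord, read 2.31, 2.31 and 2.31 without and 11.62, 11.55 and 11.80 with Cdx2 and FGF. Every motor neuron array was near the floor, and the difference was 9.35 ± 0.15 (at least 202-fold, adjusted p 8.1e-08). Hoxa9 gave 2.17, 2.17 and 2.17 without and 11.26, 11.10 and 11.11 with Cdx2 and FGF, a difference of 8.99 ± 0.15 (at least 143-fold). Paralogs of group 9 from the other 3 clusters showed the same arrangement, with no motor neuron array over 4 and every Cdx2 and FGF array over 8. Hoxb9 read 10.65, 10.75 and 10.79 on the Cdx2 and FGF arrays and rose at least 106-fold. Hoxc9 read 10.15, 10.20 and 10.15 and rose at least 71.9-fold. Hoxd9 spread more, at 11.01, 10 and 8.55, and rose at least 57.7-fold; without Cdx2 and FGF replicate 3 its difference went from 7.28 to 7.93. Hoxd8, from a start above 4 on the motor neuron arrays (4.61, 4.32 and 5.73), reached 10.77, 10.24 and 9.87, 42.4-fold higher. Hoxa7 reached the lowest levels of the genes that rose, 6.72, 7.58 and 6.94, against 3.38, 3.37 and 3.38.

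Levels of the Hox genes that fell were high in the motor neuron cultures. Hoxa4, a gene of the caudal hindbrain and cervical cord, read 10.47, 10.20 and 10.73 without and 3.57, 3.57 and 4.13 with Cdx2 and FGF, a difference of -6.71 ± 0.22 (at least 85.9-fold lower, adjusted p 6.8e-07). It was the only called Hox gene of groups 1 to 5 with Cdx2 and FGF arrays under 4. Hoxc5 read 11.70, 11.19 and 11.48 without and 5.58, 6.95 and 6.95 with Cdx2 and FGF and fell 31.1-fold. Hoxd3 read 10.65, 10.59 and 10.93 without and 6.46, 5.57 and 6.77 with Cdx2 and FGF and fell 22-fold. These 3 had the largest falls of the list. Hoxb5, the brightest Hox probe set of the motor neuron arrays, went from 14.20, 14.10 and 14.12 to 10.48, 10.65 and 10.79, an 11.3-fold fall that left it well above the filter level. The remaining 7, Hoxb4, Hoxa5, Hoxa3, Hoxa2, Hoxb3, Hoxb2 and Hoxc4, fell by between 3.38-fold for Hoxc4 and 13.2-fold for Hoxb4, and stayed above 7 on every Cdx2 and FGF array. Hoxb3 missed the threshold when the ES arrays entered the fit (adjusted p 0.067).

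The change of direction did not follow the paralog number alone. Hoxb6 fell, with 13.25, 12.75 and 12.95 without and 9.76, 10.36 and 10.45 with Cdx2 and FGF, a difference of -2.79 ± 0.20. Its neighbour in the cluster, Hoxb7, did not pass the filter and read 3.02, 3.02 and 3.02 without and 3.69, 4.22 and 4.21 with Cdx2 and FGF. For Hoxc6 the probe sets disagreed. The brightest stood at 4.62, 4.62 and 4.62 without and 4.62, 4.82 and 4.62 with Cdx2 and FGF and had no call, while 2 others rose by 3.49 and 3.4 from motor neuron values under 4, and the mean over the gene's probe sets was called higher by 2.32. Of groups 10 to 13, Hoxc10 came closest to the filter, at 2.27, 2.17 and 2.17 without and 6.14, 4.88 and 2.55 with Cdx2 and FGF, which places 2 of the 3 Cdx2 and FGF arrays over 4 and the motor neuron arrays at the floor. Hoxa10 read 3.66, 3.19 and 2.20 on the Cdx2 and FGF arrays. Hoxa10 and the other 8 genes of groups 10 to 13 had no array over 4 in either group.

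**Figure D2:**
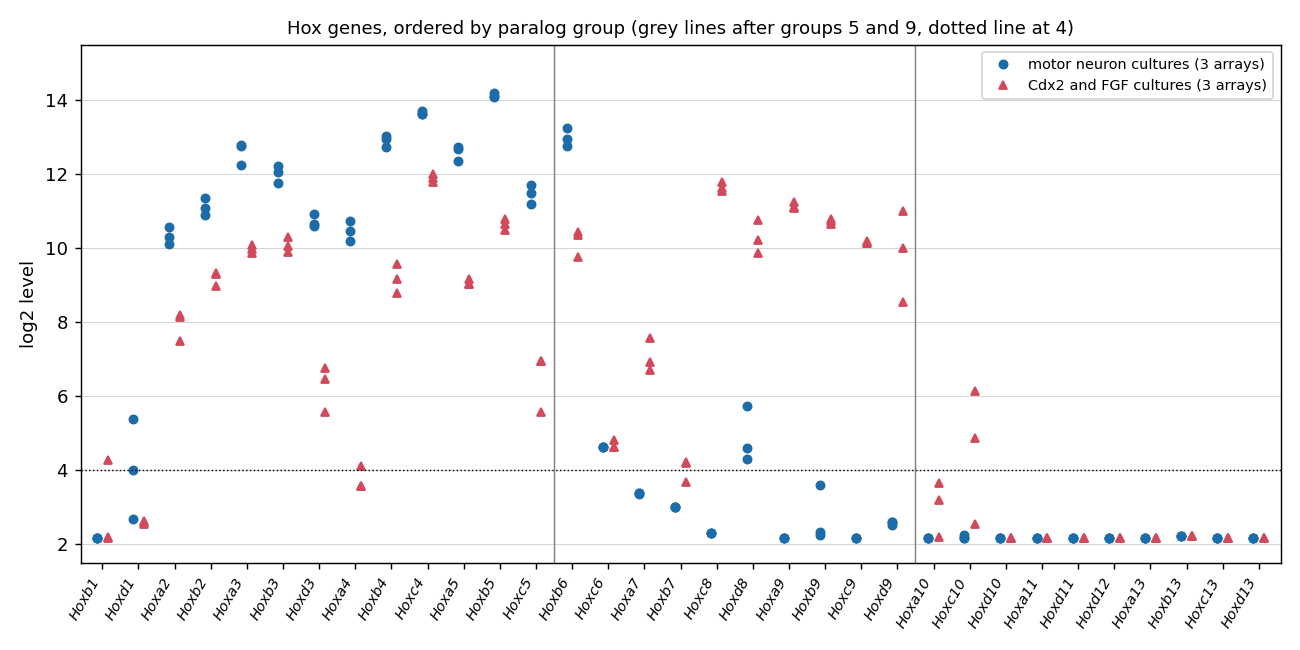
Log2 levels of the 33 Hox genes with a probe set, ordered by paralog group, with 1 circle per motor neuron array and 1 triangle per Cdx2 and FGF array. Circles lie above triangles for the 11 tested genes of groups 1 to 5 and for Hoxb6, triangles lie above circles for the 7 called genes of groups 7 to 9, and 9 of the 10 genes after the last grey line have every point under 4.

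Few genes that work with Hox proteins or over their clusters were called. Of 9 tested cofactors and regulators, 1 was called lower and 0 higher. With 9 genes these counts cannot be told apart from the 10.1% lower and 12.9% higher of all tested genes. Pbx3, which encodes a TALE homeodomain partner of Hox proteins, read 11.88, 11.74 and 11.56 without and 7.74, 8.11 and 8.19 with Cdx2 and FGF, 13.1-fold lower with no overlap (adjusted p 1.4e-06). Its relatives Meis1 and Meis3 differed by -0.66 ± 0.10 and -0.80 ± 0.16, under the size set for a call. Among 32 tested Polycomb and trithorax genes, whose products keep Hox clusters repressed or active, 1 was called higher and 1 lower, and the median difference was 0.02. Ezh1, a methyltransferase subunit of Polycomb repressive complex 2, was 2.88-fold higher (adjusted p 0.0063), a call lost when the ES arrays entered the fit (adjusted p 0.067) and with the mean of its probe sets. Jarid2, a cofactor of the same complex, was 2.11-fold lower, and its difference fell short of 1 without Cdx2 and FGF replicate 2 (-0.96) and under 2 choices of probe sets.

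Genes of the tail bud and of caudal progenitors rose in part. Of 18 with a probe set, 8 were tested, 5 were called higher and 1 lower, with a median of 2.20 (1.64 at the bound of 4); 2 of the 8 had passed only through the Cdx2 and FGF arrays. Cdx4, a paralog of Cdx2, went from 2.17, 2.17 and 2.17 to 5.31, 6.06 and 5.46 (at least 3.05-fold higher). Nkx1-2, a marker of neuromesodermal progenitors and the preneural tube, read 3.01, 3.58 and 5.88 without and 6.89, 7.68 and 6.38 with Cdx2 and FGF. The third motor neuron array came near the Cdx2 and FGF range without reaching it. Its adjusted p of 0.012 became 0.051 without motor neuron replicate 2 and 0.061 without Cdx2 and FGF replicate 2, so that call rested on those arrays. Without motor neuron replicate 3 the difference went from 2.83 to 3.69. Rspo3, a secreted enhancer of Wnt signalling, rose at least 5.69-fold from 2.51, 2.46 and 2.51 to 6.44, 6.82 and 6.27. Sp8 fell 3.34-fold. The defining genes Cdx1, Wnt3a, Tbx6 and Msgn1 had no array over 4 in either group, and neither did Fgf8. T, another defining gene of this list, had no probe set matched to its name and was not measured here.

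Retinoic acid genes moved both ways. Over 17 tested genes, 7 were called higher and 3 lower, with a median of 0.23. Over all tested genes 12.9% were called higher and 10.1% lower, and 3 of 17 is hard to tell apart from the latter. Cyp26b1, an enzyme that breaks down retinoic acid, read 11.64, 10.94 and 11.70 without and 2.21, 2.17 and 2.17 with Cdx2 and FGF, which is at least 172-fold lower (adjusted p 2.7e-07). Cyp26a1, which catalyses the same reaction and marks the tail bud, moved the other way, from 7.59, 8.14 and 9.16 to 11.11, 11.08 and 10.89, 6.63-fold higher. Aldh1a2, which makes retinoic acid in somites and in some motor neurons, rose at least 7.19-fold to 7.52, 7.29 and 5.72. Tgm2, a transglutaminase whose gene responds to retinoids, rose 11.3-fold, and Rbp4, the retinol carrier of plasma, rose 8.09-fold.

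The hedgehog pathway genes that were called had all risen. Of 13 tested, 9 were called higher and 0 lower, and the list's median was 1.59. Without Cdx2 and FGF replicate 2 or 3, 6 of the 13 were called higher, without replicate 1 or with the ES arrays in the fit 7, and without the filter 6 of 15. Gli3, a transcription factor of the pathway, read 5.34, 6.37 and 6.48 without and 9.66, 9.78 and 9.88 with Cdx2 and FGF, 13.1-fold higher. Boc, a coreceptor, read 5.24, 5.10 and 5.92 without and 8.85, 8.99 and 8.85 with Cdx2 and FGF and rose 11.1-fold. Neither gene's groups overlapped. Hhip, a hedgehog-binding inhibitor, rose 4.31-fold, with the first motor neuron array (5.90, 7.57 and 7.59) lower than the others. Disp1, which releases hedgehog ligand, read 5.15, 8.01 and 7.13 without and 8.73, 8.62 and 9.28 with Cdx2 and FGF. Its call (adjusted p 0.026) was lost without any 1 of the 3 Cdx2 and FGF arrays (adjusted p 0.07 to 0.095), and its difference of 2.11 was 1.31 without motor neuron replicate 1 and 2.74 without replicate 2.

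Ventral progenitor factors did not move together. Of 10 tested, 5 were called lower and 1 higher, with a median of -1.14. Over all tested genes 10.1% were called lower and 12.9% higher, so the 1 rise is near that share. Nkx6-1, which is expressed across the ventral progenitor domains, read 11.93, 12.11 and 12.09 without and 12.08, 12.15 and 11.94 with Cdx2 and FGF. The groups overlapped, and the difference was 0.01 ± 0.08. Olig2, the factor that specifies motor neuron progenitors, read 12.24, 12.25 and 12.42 without and 11.46, 11.38 and 11.41 with Cdx2 and FGF, lower on each Cdx2 and FGF array by a difference of -0.89 ± 0.07, which is under the size set for a call. Its neighbour Olig1 went from 11.13, 11.37 and 11.41 to 7.70, 7.14 and 6.81, 17-fold lower (adjusted p 6.1e-06). Nkx2-2, a factor of the domain just ventral to motor neuron progenitors, read 12.32, 12.53 and 12.07 without and 7.69, 7.95 and 8.77 with Cdx2 and FGF, 18-fold lower with no overlap. Pax6, which lies dorsal to Nkx2-2, also fell, from 8.59, 8.95 and 9.46 to 7.19, 6.60 and 5.08. The third Cdx2 and FGF array was its lowest, and without it the difference went from -2.71 to -2.11. Irx5 fell 13.9-fold. Foxa2, the floor plate factor, was the member called higher, with 8.90, 9.79 and 9.33 without and 11.11, 11.31 and 11.49 with Cdx2 and FGF (3.89-fold, adjusted p 0.00024).

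Motor neuron factors were lower in the Cdx2 and FGF cultures but remained above the filter level in most cases. Of 21 tested, 16 were called lower and 2 higher, with a median of -2.73 (-2.49 at the bound of 4). Of the 21, 2 had passed the filter only through the motor neuron arrays and 2 only through the Cdx2 and FGF arrays. Isl1, a LIM homeodomain factor of postmitotic motor neurons, read 12.77, 12.36 and 12.37 without and 9.88, 9.55 and 9.88 with Cdx2 and FGF, 6.64-fold lower (adjusted p 5.1e-06). Mnx1, a motor neuron homeodomain factor, read 10.64, 10.04 and 9.36 without and 6.72, 6.19 and 6.70 with Cdx2 and FGF, 11.1-fold lower. Lhx3, the partner of Isl1 in motor neuron specification, read 9.43, 8.69 and 8.66 without and 5.21, 5.57 and 5.22 with Cdx2 and FGF, 12-fold lower. On all 3 genes the groups were apart, and every Cdx2 and FGF array stayed above 5. Lhx4 fell 14.2-fold, and the Ebf factors Ebf1 and Ebf3, which act in neuronal differentiation, fell 16.1-fold and 11.5-fold. The 2 members called higher were Etv4, which is also a target of FGF signalling, and Aldh1a2. Isl2, a defining gene, did not pass the filter. It read 6.09, 6.10 and 3.37 without and 2.17, 2.17 and 2.17 with Cdx2 and FGF.

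Cholinergic genes were measured in part. Chat, which makes acetylcholine, and Slc5a7, which takes up choline, were at the floor on all 6 arrays. Slc18a3, the vesicular acetylcholine transporter, read 11.29, 11.37 and 10.65 without and 4.12, 4.01 and 3.67 with Cdx2 and FGF, at least 134-fold lower (adjusted p 6.6e-07). Of 4 tested members, 3 were called lower and 1 higher. The receptors Gfra1 and Ngfr fell 5.85-fold and 5.76-fold. The receptor tyrosine kinase Ret rose, from 9.80, 9.02 and 9.38 to 10.62, 10.39 and 10.74, and its difference of 1.19 was just under 1 without motor neuron replicate 2.

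Proneural and early neuronal transcription factors fell in most cases. Of 16 tested, 12 were called lower and 1 higher [median -2.53 (-2.51 at the bound of 4)]. Neurog1 read 11.51, 11.52 and 11.75 without and 5.98, 5.98 and 5.56 with Cdx2 and FGF, 54-fold lower. Nhlh2 read 12.92, 12.50 and 12.61 without and 7.79, 6.96 and 7.43 with Cdx2 and FGF, 39-fold lower. Scrt2 fell 35.7-fold and St18, a zinc finger factor of differentiating neurons, fell 87.9-fold. Of 17 tested Notch genes, 7 were called lower and 3 higher, beside 10.1% lower and 12.9% higher over all tested genes. The 3 rises are near that share. With the ES arrays in the fit or without motor neuron replicate 2, 5 were called lower. Hes5, the Notch target of neural progenitors, went from 11.61, 11.56 and 12.15 to 9.63, 9.40 and 9.86 (4.42-fold lower), and the glycosyltransferase Mfng fell 4.12-fold. The ligand Jag1 rose 8.68-fold, from 7.32, 8.45 and 7.68 to 11, 10.68 and 11.13, and the receptor Notch2 rose 3.71-fold.

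Neuronal structural, synaptic and RNA-binding protein genes fell in most cases. Of 29 tested genes of the neuronal cytoskeleton and growth cone, 21 were called lower and 0 higher, with a median of -2.64. Of 19 synaptic and excitability genes, 16 were lower and 0 higher [median -4.06 (-2.76 at the bound of 4)], 6 of the 19 having been tested only through the motor neuron arrays. Among neural RNA-binding proteins the counts were 11 lower and 0 higher of 16 (median -2.09). In this list and in the cytoskeleton list, 2 genes each had been tested only through the motor neuron arrays. Dcx, a microtubule protein of young neurons, read 13.23, 12.76 and 12.51 without and 6.90, 4.73 and 5.45 with Cdx2 and FGF, 141-fold lower. The first Cdx2 and FGF array was the highest of its group, and without it the difference went from -7.14 to -7.74. Sncg, gamma-synuclein, read 14.10, 13.90 and 13.51 without and 4.65, 3.95 and 3.60 with Cdx2 and FGF (at least 786-fold lower, adjusted p 3.8e-07). Tubb3, the neuronal beta-tubulin, stayed bright after its fall, at 11.86, 11.82 and 11.74 against 14.56, 14.49 and 14.32, 6.26-fold lower. The 7 defining genes of neurons (Tubb3, Dcx, Stmn2, Elavl3, Elavl4, Map2 and Snap25) were all called lower. Mapt fell at least 43.3-fold, Gap43 22.5-fold, and the synaptic vesicle proteins Syp and Syn1 29.1-fold and at least 19.2-fold. The calcium channel subunit Cacna2d1 was at the filter limit or below in the Cdx2 and FGF cultures (3, 3 and 3.22) after 9.80, 9.74 and 9.50 in the motor neuron cultures. The splicing factor Rbfox1 fell at least 42.8-fold and Nova2 fell 35.5-fold. Prph, a neurofilament protein, read 9.93, 9.21 and 7.11 on the motor neuron arrays, so the third was the lowest. Its difference of -6.46 was -7.28 without that array and -5.87 without replicate 1.

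Neural progenitor genes shared by many domains changed unevenly. Of 21 tested, 8 were called lower and 3 higher, with a median of -0.67. The 3 rises are near the 12.9% of all tested genes called higher, and 10.1% of all were called lower. Sox2, the pan-neural progenitor factor, read 12.14, 12.09 and 12.10 without and 12.87, 12.74 and 12.79 with Cdx2 and FGF, and Nes, the intermediate filament of progenitors, read 10.87, 10.82 and 10.79 without and 10.28, 10.26 and 10.22 with Cdx2 and FGF. The groups were apart on both genes, by 0.69 ± 0.05 and -0.57 ± 0.08, neither of which reached the size for a call. Sox1 also had no call (-0.67 ± 0.21). Fabp7, a fatty acid binding protein of radial glia, read 13.29, 13.25 and 12.20 without and 7.47, 6.61 and 6.98 with Cdx2 and FGF, 59.5-fold lower (adjusted p 6.7e-06). Pou3f3 fell 14.4-fold. Zic2 rose at least 30.1-fold from the floor to 9.08, 8.84 and 8.80, and the growth factor Ptn rose 26.7-fold.

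**Figure D3:**
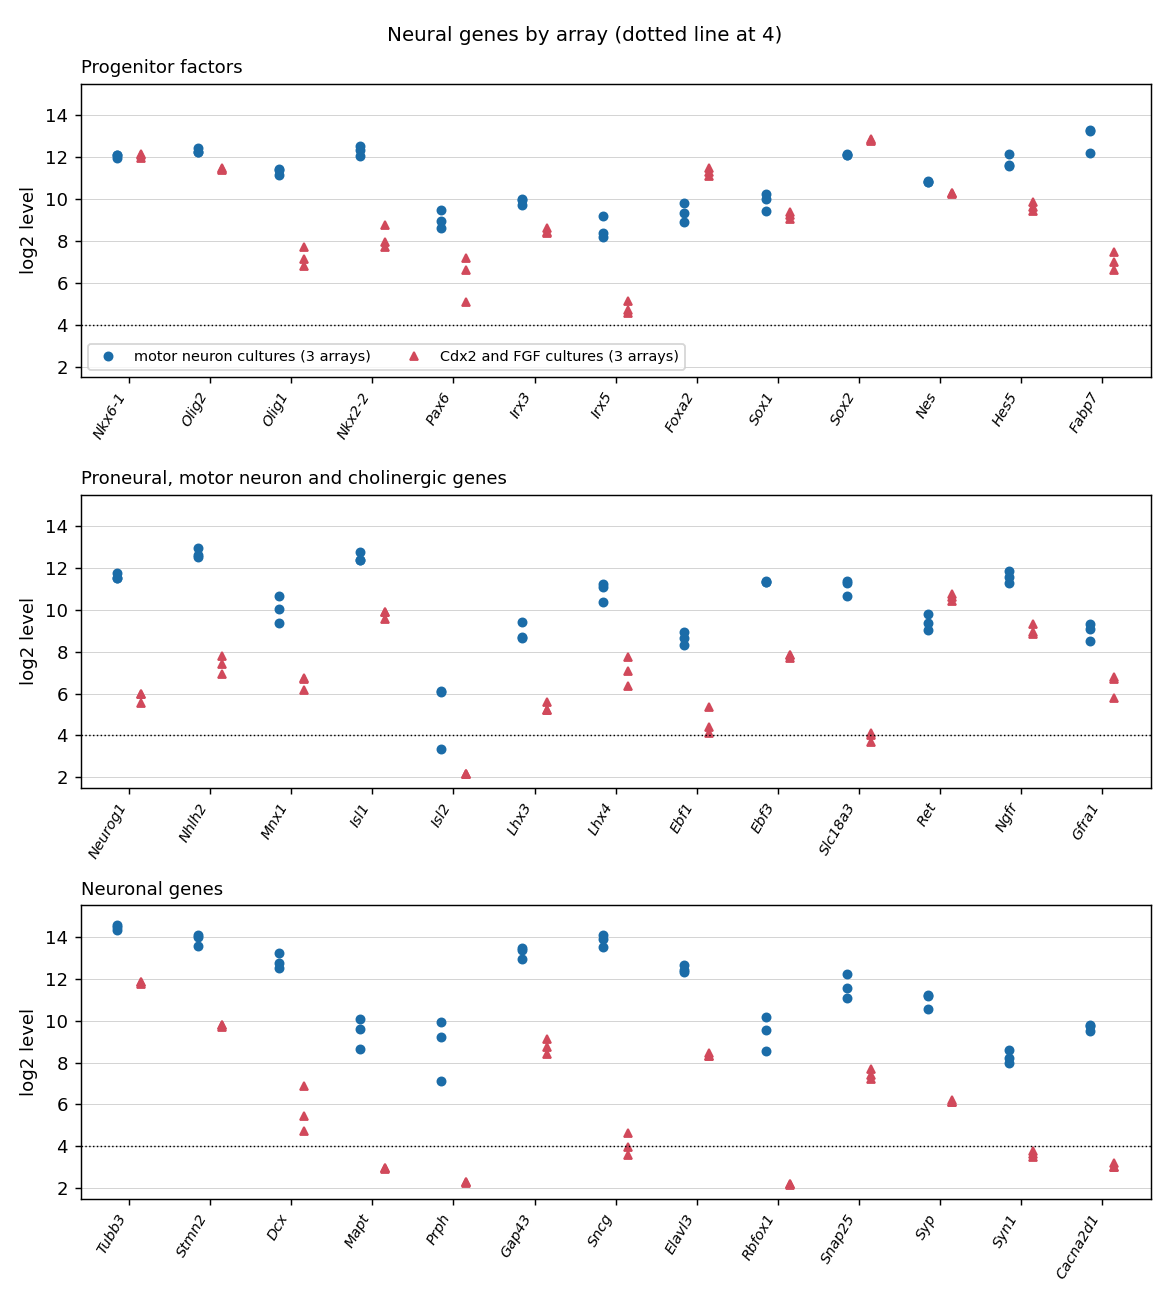
Log2 levels of progenitor, motor neuron and neuronal genes, with 1 circle per motor neuron array and 1 triangle per Cdx2 and FGF array; the genes shown were chosen with their values known. Nkx6-1 overlaps between the groups, Olig2, Sox2 and Nes lie close together, and the lower panels show circles above triangles for every gene except Ret.

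FGF and ERK response genes rose in most cases. Of 18 tested, 13 were called higher and 1 lower, with a median of 2.48 and 3 that had passed only through the Cdx2 and FGF arrays. Etv5, an ETS factor induced by FGF signalling, read 3.42, 3.42 and 3.24 without and 10.48, 10.53 and 10.38 with Cdx2 and FGF, at least 88.4-fold higher (adjusted p 1.4e-07). Spry1, a feedback inhibitor of the pathway, read 4.73, 5.22 and 5.22 without and 11.03, 10.88 and 10.63 with Cdx2 and FGF, 55.5-fold higher. The groups stood more than 5 log2 units apart on both. Egr1, an immediate early transcription factor, rose at least 15.6-fold, from 4.09, 3.94 and 3.97 to 8.40, 7.65 and 7.92. Ier3 rose 16-fold, from 5.21, 6.60 and 4.36 to 9.76, 8.78 and 9.63, and its difference of 4.0 was 4.6 without motor neuron replicate 2. Among 12 tested immediate early genes, 6 were called higher and 0 lower. Fosl2 reached 8.42, 7.40 and 6.49 on the Cdx2 and FGF arrays from values under 4, and Atf3 rose 10.4-fold. The receptors changed little. Fgfr1 rose 2.15-fold and Fgfr2 fell 2.51-fold, and both calls were lost with the mean of the gene's probe sets; that of Fgfr1 was also lost without s_at and x_at probe sets and without motor neuron replicate 1. Of 20 FGF ligands and receptors with a probe set, 6 were tested, 1 was called higher and 2 lower. With 6 genes these counts cannot be told apart from the 12.9% higher and 10.1% lower of all tested genes. Of the ligands tested, Fgf13, an intracellular family member of neurons, fell 2.97-fold, and Fgf18 had no call, although it was called lower without Cdx2 and FGF replicate 2 (a difference of -1.26) and with the arrays scaled again (-1.13 and -1.07).

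Contractile genes of smooth and embryonic cardiac muscle rose in most cases, some of them from background to over 12. Of 32 with a probe set, 17 were tested and 12 were called higher and 0 lower, with a median of 2.38. Of the 17, 2 had passed the filter only through the Cdx2 and FGF arrays. Acta2, smooth muscle alpha-actin, read 3.24, 2.65 and 5.08 without and 13.30, 13.43 and 13.39 with Cdx2 and FGF, at least 517-fold higher (adjusted p 7.2e-06). It was measured by a probe set of the s_at kind, which can match more than 1 transcript, and its 2 other probe sets were at the floor on all 6 arrays. Tagln, an actin-binding protein of smooth muscle, read 2.25, 3.11 and 5.30 without and 12.88, 12.84 and 12.68 with Cdx2 and FGF, at least 330-fold higher. Actc1, the actin of embryonic heart, read 2.58, 2.45 and 2.77 without and 12.23, 12.13 and 12.09 with Cdx2 and FGF, at least 284-fold higher. Myl9, a myosin regulatory light chain, read 3.11, 4.44 and 8.17 without and 13.34, 13.40 and 13.08 with Cdx2 and FGF, at least 213-fold higher (adjusted p 0.00069). On these 4 genes the Cdx2 and FGF arrays lay within 0.4 of each other above 12. The third motor neuron array was the highest of its group for each, and its Myl9 value of 8.17 was far above the other 2. Without that array the difference of Myl9 went from 8.03 to 9.50, that of Tagln from 9.25 to 10.12 and that of Acta2 from 9.72 to 10.43; without motor neuron replicate 1 they were 6.97 for Myl9 and 8.59 for Tagln. Of the defining smooth muscle genes, Cnn1 also rose, from 2.17, 2.17 and 2.17 to 7.23, 7.51 and 6.93 (at least 9.34-fold). Myh11 and Actg2, which mark mature smooth muscle, had no array over 4 in either group.

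Promoter windows were searched because many contractile genes are known targets of serum response factor, which binds the CArG box: CC, then 6 letters that are each A or T, then GG. The windows are RefSeq's on GRCm38.p6 and run from 250 bases before to 50 bases after the annotated start of the gene. Of the 12 contractile genes called higher, 11 had a window, and it held a CArG box on either strand in 3, Actc1, Myl9 and Cnn2 (27.3%). Over all contractile genes with a probe set, called or not, it was in 7 of 27 windows (25.9%), so genes that rose and the list as a whole had nearly the same share. The share was 2.09% of 1052 windows for all genes called higher, 1.97% of 811 for genes called lower, 1.58% of 8393 for the genes tested and 1.81% of 27025 for the whole table. The 3 windows are given because they are those of the called contractile genes that hold the box, which is in capitals, 5′ to 3′ on the strand of the gene. The Actc1 window is chr2:114052826-114053125 on the minus strand, with the box from -47 to -38 relative to the start. The Myl9 window is chr2:156775214-156775513 on the plus strand, with the box from -161 to -152. The Cnn2 window is chr10:79988350-79988649 on the plus strand, with the box from -56 to -47.
Actc1: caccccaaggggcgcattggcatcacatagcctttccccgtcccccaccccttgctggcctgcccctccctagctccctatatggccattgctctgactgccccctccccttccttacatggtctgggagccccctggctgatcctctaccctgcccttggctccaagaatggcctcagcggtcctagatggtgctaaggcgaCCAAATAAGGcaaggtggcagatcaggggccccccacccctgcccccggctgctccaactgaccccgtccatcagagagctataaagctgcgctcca
Myl9: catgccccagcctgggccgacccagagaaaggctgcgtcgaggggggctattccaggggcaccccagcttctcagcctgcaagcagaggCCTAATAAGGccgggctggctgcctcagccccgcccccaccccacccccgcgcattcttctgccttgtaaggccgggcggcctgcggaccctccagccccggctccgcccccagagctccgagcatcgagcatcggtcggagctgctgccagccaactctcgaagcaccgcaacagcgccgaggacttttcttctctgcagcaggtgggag
Cnn2: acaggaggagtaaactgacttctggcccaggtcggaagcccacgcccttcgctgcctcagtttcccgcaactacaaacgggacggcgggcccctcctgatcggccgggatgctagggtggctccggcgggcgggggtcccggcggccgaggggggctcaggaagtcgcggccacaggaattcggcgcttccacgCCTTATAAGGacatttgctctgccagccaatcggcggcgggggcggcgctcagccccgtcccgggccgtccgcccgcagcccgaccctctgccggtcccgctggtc
Cnn2, the calponin found outside muscle as well, read 9.60, 10.01 and 10.28 without and 13.41, 13.54 and 13.47 with Cdx2 and FGF, 11.4-fold higher. These matches describe the letters of 3 windows and show nothing about binding. The motif CNATAAA, which resembles the site of caudal homeobox proteins, was in 8.17% of the windows of genes called higher, 7.64% of those called lower, 7.61% of those tested and 12.5% of the whole table (both strands). It was in 18.2% of the windows of contractile genes called higher and in 25.9% of those of all contractile genes. It was in 0 of the 10 windows found for the 19 called Hox genes.

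Targets of YAP and serum response factor rose in most cases. Of 16 tested, 11 were called higher and 0 lower, with a median of 1.48. Of the 16, 2 had passed the filter only through the Cdx2 and FGF arrays. Ccn1, a secreted matrix-associated protein, read 4.15, 4.56 and 4.96 without and 11.20, 10.54 and 10.77 with Cdx2 and FGF, 77.9-fold higher. Thbs1, a thrombospondin, rose at least 21-fold from values under 4. Ccn2 rose 12.2-fold, with 5.60, 7.92 and 7.66 on the motor neuron arrays, and its difference of 3.61 was 2.88 without replicate 1, the lowest of them. Tpm1, a tropomyosin that is the 1 member shared with the contractile list, rose 5.21-fold from levels above 11.

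Transcription factors of mesoderm and mesenchyme showed a clear subset of rises. Of 36 with a probe set, 14 were tested, 8 were called higher and 2 lower, with a median of 4.09 (3.10 at the bound of 4); 6 of the 14 had passed only through the Cdx2 and FGF arrays. Meox1, a homeobox factor of somites, read 2.17, 2.17 and 2.17 without and 10.74, 11.04 and 11.06 with Cdx2 and FGF, at least 123-fold higher (adjusted p 8.4e-08). Twist2, a factor of dermal and limb mesenchyme, read 2.17, 2.17 and 2.17 without and 9.20, 9.45 and 9.78 with Cdx2 and FGF, at least 44.5-fold higher. Foxc1 rose at least 33.3-fold and Foxf1 at least 31.3-fold, with no motor neuron array of either over 4. Of the defining genes of paraxial mesoderm, Tbx6 and Msgn1 were at the floor in both groups and Tcf15 had no call (0.85 ± 0.28); without motor neuron replicate 1 or Cdx2 and FGF replicate 2 it was called higher, by 1.02 and 1.07. Gata4 had no array over 4, and Gata6 was called lower, from 4.59, 4.62 and 5.13 to 3.34, 3.34 and 3.34 (at least 1.72-fold lower); with values under 4 raised to 4 its difference was -0.78 and the call was lost.

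Extracellular matrix genes had the highest share of rises of any list over 10 tested members. Of 31 tested, 28 were called higher and 0 lower, with a median of 3.4 (3.06 at the bound of 4), and 9 passed only through the Cdx2 and FGF arrays. Mmp2, a gelatinase, read 2.17, 2.17 and 2.17 without and 10.04, 10.11 and 9.72 with Cdx2 and FGF, at least 62-fold higher (adjusted p 1.8e-07). Itga5, the fibronectin receptor subunit, rose at least 39.7-fold to 9.14, 9.39 and 9.41, although the mean of its probe sets gave a difference of 2.53 in place of 5.80. Lama5 and Nid2, of basement membranes, rose at least 30.4-fold and 29.3-fold. The median level of the tested matrix genes was 4.70, 6.08 and 6.96 without and 9.65, 9.69 and 9.51 with Cdx2 and FGF, so motor neuron replicate 1 was the lowest of its group. Fibroblast genes went the same way where they were measured. Col1a1 went from the floor to 7.11, 7.11 and 7.09, Col3a1 reached 8.03, 7.58 and 8.25 and the receptor Pdgfrb rose at least 11.7-fold. Of the 15 fibroblast genes, 6 were tested and 6 were higher, 5 of them passing only through the Cdx2 and FGF arrays. The defining fibroblast genes Dcn and Thy1 had no array over 4 in either group. ES cells of this line were grown on fibroblasts before differentiation. On the ES arrays, which were left out of the fit, the defining fibroblast genes had means of 11.09 (Col1a1), 7.92 (Col1a2), 7.02 (Thy1), 6.11 (Col3a1) and 3.47 (Dcn). The 4 contractile genes with the largest rises had ES means of 11.24 (Acta2), 10.47 (Tagln), 8.16 (Myl9) and 2.56 (Actc1). The part of other cell types in these differences was not tested.

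Genes of the TGF-beta and BMP pathways rose in most cases. Of 15 tested, 9 were called higher and 0 lower, with a median of 2.27 (2.03 at the bound of 4). For 4 of the 15 the filter was met by the Cdx2 and FGF cultures alone, so these 4 had to differ. Tgfb2, a ligand, read 4.04, 5.61 and 4.81 without and 11.29, 11.25 and 10.99 with Cdx2 and FGF, 82-fold higher. Tgfbi, a matrix protein induced by that signal, read 2.17, 2.26 and 2.20 without and 10.37, 10.01 and 10.14 with Cdx2 and FGF, at least 72.2-fold higher. Bmp4 rose at least 13.6-fold to 8.43, 7.57 and 7.29, and the decoy receptor Bambi rose 9.17-fold. Of 16 tested Wnt genes, 7 were called higher and 2 lower. The 2 falls are near the 10.1% of all tested genes called lower, and 12.9% of all were called higher. For 3 of the 16 the filter was met by the Cdx2 and FGF cultures alone, and for 1 by the motor neuron cultures alone. Lef1, a transcription factor of the pathway, read 2.89, 2.89 and 2.89 without and 6.85, 7.99 and 8.10 with Cdx2 and FGF, at least 12.5-fold higher, and the receptor Fzd10 rose at least 7.36-fold. Wnt7a, a ligand of the neural tube, fell at least 19.7-fold, from 8.03, 8.69 and 8.18 to the floor.

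**Figure D4:**
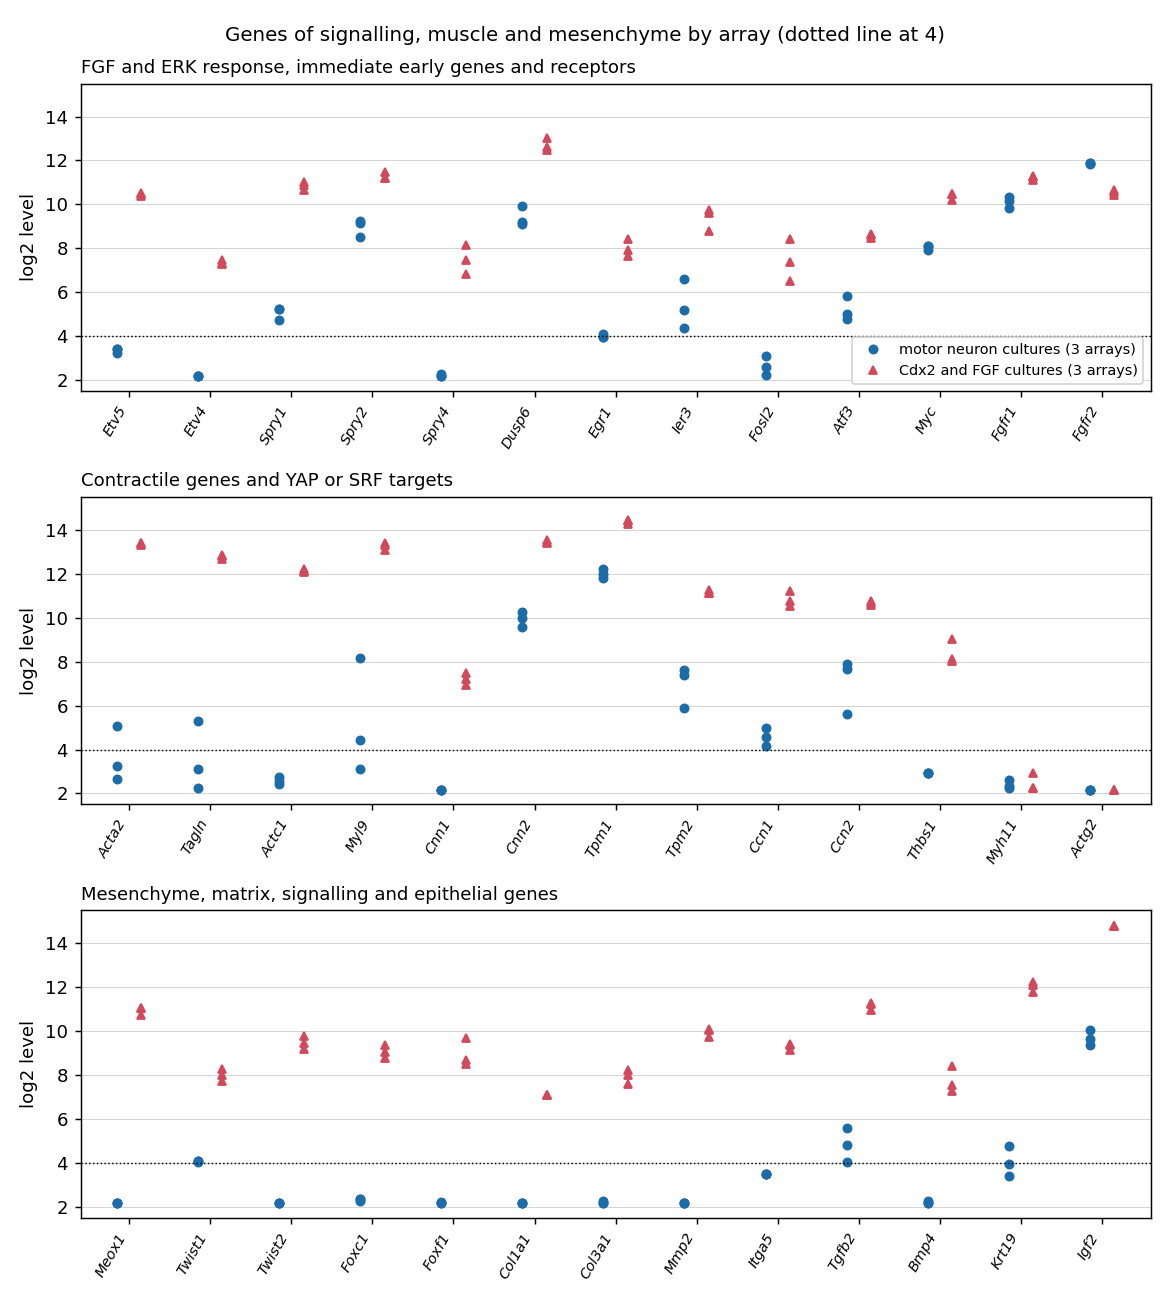
Log2 levels of signalling, contractile, mesenchymal and epithelial genes, with 1 circle per motor neuron array and 1 triangle per Cdx2 and FGF array; the genes shown were chosen with their values known. Triangles lie above circles except for Fgfr2, Myh11 and Actg2, and the circles of Acta2, Tagln and Myl9 spread widest.

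Keratin and junction genes rose in most cases, and 4 of the 5 defining epithelial genes were called higher. Of 10 tested keratin and junction genes, 7 were called higher and 1 lower, with a median of 2.79 (2.52 at the bound of 4). Krt19, a simple epithelial keratin, read 3.93, 3.42 and 4.78 without and 12.26, 12.10 and 11.77 with Cdx2 and FGF, at least 220-fold higher (adjusted p 1.7e-06). Krt18 read 7.86, 7.27 and 8.10 without and 10.49, 10.94 and 10.54 with Cdx2 and FGF (7.53-fold) and Krt8 read 3.35, 3.35 and 5.22 without and 6.27, 7.10 and 6.23 with Cdx2 and FGF (at least 4.38-fold); the third motor neuron array was the highest for both, and without it the difference of Krt8 went from 2.56 to 3.18. Krt8 missed the threshold when the ES arrays entered the fit (adjusted p 0.078). Epcam, an epithelial adhesion protein, read 2.44, 3.92 and 3.92 without and 6.90, 6.54 and 4.85 with Cdx2 and FGF (at least 4.28-fold), and missed the threshold without the filter (adjusted p 0.058). Dsp, desmoplakin, rose 21.8-fold. Cldn3, a claudin, fell at least 9.61-fold. Cdh1, the epithelial cadherin and the fifth defining gene, did not pass the filter and read 3.06, 2.61 and 3.34 without and 3.70, 3.86 and 4.36 with Cdx2 and FGF.

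Defining genes of most other lineages stayed low, while broader genes of some lists rose. Of the 14 intestinal genes with a probe set, 0 passed the filter, although Cdx2 is a regulator of the intestine later in life. Defining genes of endothelium (0 of 4), blood (0 of 3), neural crest (0 of 3), glia (0 of 2) and pluripotent cells (0 of 4) had no array over 4 in either group. Of the trophoblast list, where Cdx2 also acts in the early embryo, 6 of 17 genes were tested and 4 were called higher and 0 lower, none of the 4 restricted to that lineage. These were Bmp4, Gata3 (5.55, 6.04 and 6.17, from the floor), Peg10 (4.57-fold) and Id2 (2.64-fold). Of the 6 tested, 2 had passed the filter only through the Cdx2 and FGF arrays. Of 7 tested genes of the neural crest list, 4 were called higher and 1, Ngfr, lower, with Ets1 up at least 44.5-fold, Twist1 15.3-fold and Snai2 at least 13.8-fold. These 3 are also expressed in mesenchyme. Of the 7 tested, 2 had passed the filter only through the Cdx2 and FGF arrays. Of the 4 defining endoderm genes, Sox17 and Gata4 had no array over 4. The other 2 did: Foxa2, also the floor plate factor, was called higher (11.11, 11.31 and 11.49 with Cdx2 and FGF). Gata6 was called lower.

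Genes of growth and metabolism changed in part. Of 16 tested imprinted genes, 8 were called higher and 1 lower. Igf2, a fetal growth factor, was at 9.63, 10.05 and 9.39 without and 14.78, 14.77 and 14.79 with Cdx2 and FGF, 34-fold higher (adjusted p 4.1e-07). Igf2r, which clears that factor, rose 3.52-fold, and Nnat, a neuronal imprinted gene, fell 4.74-fold. Of 38 tested cell cycle genes, 7 were called higher and 2 lower, with a median of 0.42. Without motor neuron replicate 1, 4 were called higher. The shares over all tested genes were 12.9% higher and 10.1% lower, so the cell cycle list did not stand out clearly. Cdk6 rose 7.72-fold, from 6.30, 7.24 and 7.60 to 10.19, 10.01 and 9.78, and Myc rose 5.03-fold. Mycl fell 2.82-fold, a call lost when the ES arrays entered the fit (adjusted p 0.071), and the inhibitor Cdkn2c fell 2.85-fold. Of 20 tested glycolysis and hypoxia genes, 6 were called higher and 0 lower. Pfkp, a phosphofructokinase, rose 16.3-fold, and Ndrg1 rose 10.4-fold. Adm, adrenomedullin, rose 4.73-fold, and its difference of 2.24 was 1.51 without motor neuron replicate 3, where it was lowest (11.05, 10.98 and 8.83).

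**Figure D5:**
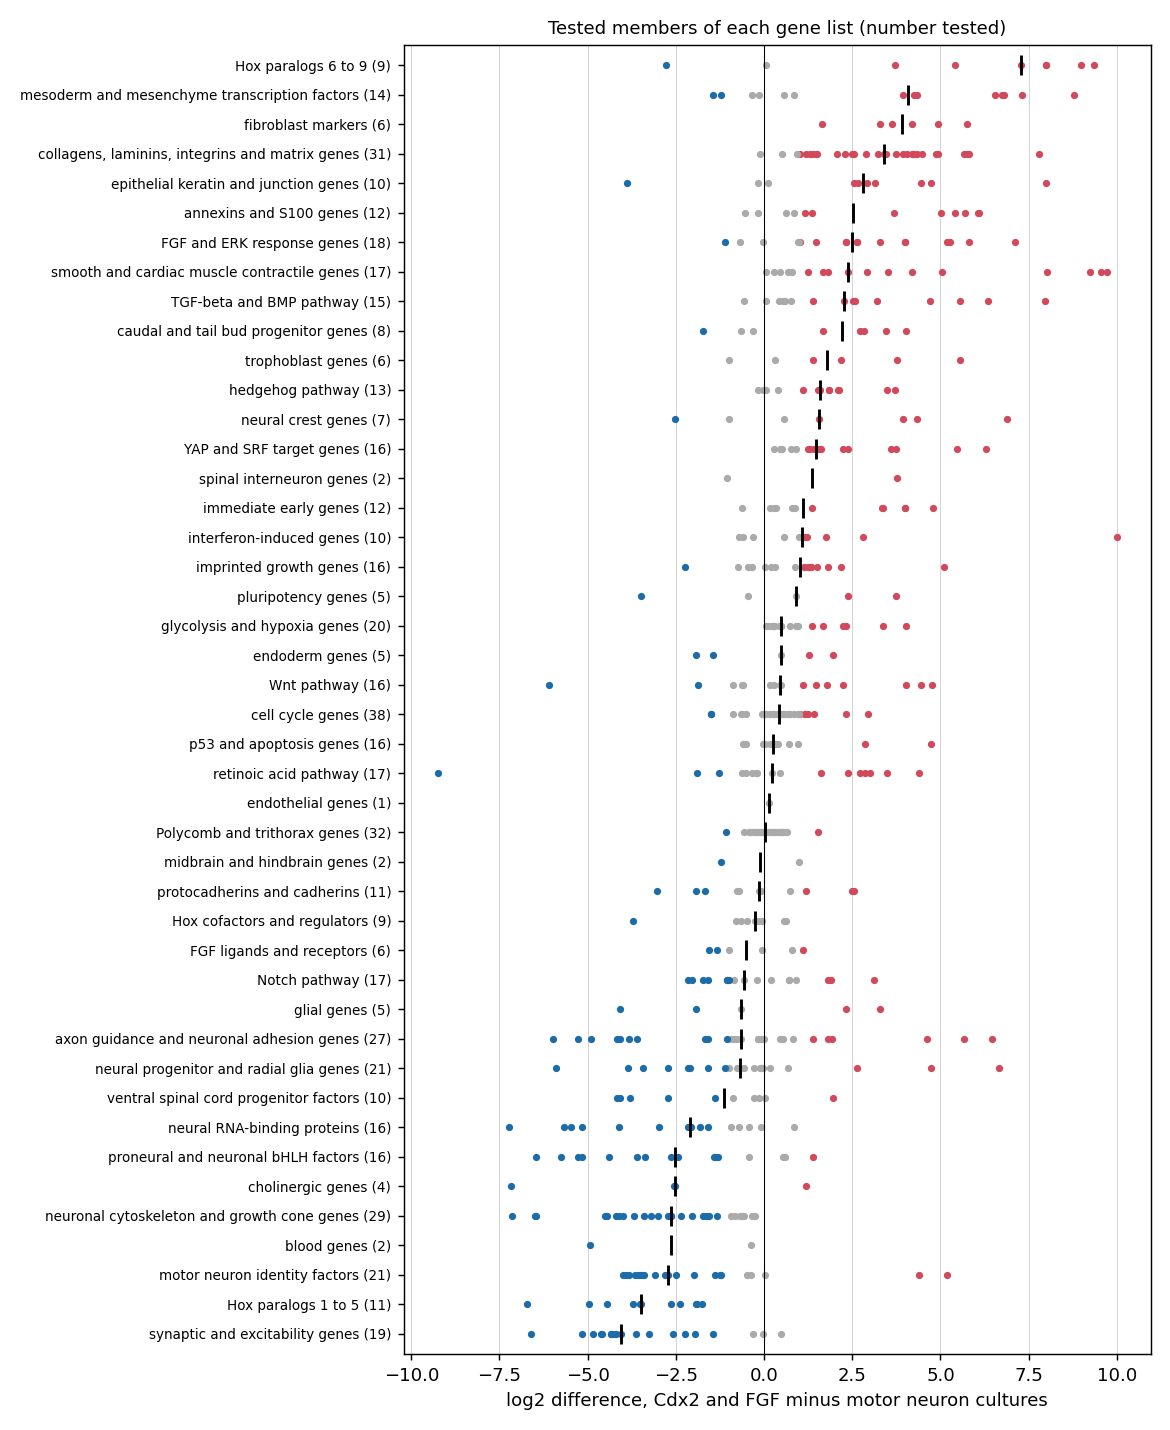
Each point is a tested member of a gene list at its log2 difference between the Cdx2 and FGF and the motor neuron cultures (x axis), red where called higher, blue where called lower and grey without a call, and the black bar is the list's median. Lists are ordered by that median, from -4.06 for synaptic genes to 7.28 for Hox paralogs 6 to 9, beside 0.06 over all tested genes; with values under 4 raised to 4 these become -2.76 and 5.85, and Hox paralogs 1 to 5 have the lowest median (-3.50). Members that passed the filter only in 1 group had to differ.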

How the data were processed

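The labels' protocols give NuGEN Ovation amplification and labelling of total RNA. The submitters' processing notes name GCRMA and limma and give no version. The authors deposited log2 levels per probe set, a scale inferred here from the range of the values. They ran from 2.165 upward and were used without further normalization. The number of arrays limits the precision. The ES arrays were left out of the fit. A gene's brightest probe set by its mean over the 6 arrays stood for it and was tested if over 4 on at least 3 of them. Groups were compared with limma 3.58.1 in R 4.3.3 (lmFit, then eBayes with an intensity trend), with 4 residual degrees of freedom and Benjamini-Hochberg adjustment over the genes tested, and the fit was checked on simulated data. The GRCm38.p6 gene table, used for names, held the Entrez identifiers of 34754 probe sets. The members and the 46 gene lists were chosen with earlier results of these data known. Named genes were Cdx2, every Hox gene, the 15 largest rises and falls among calls with no overlap between groups (predicted and clone names counted, not named), the 4 highest ranked members per list, and defining cell type markers; others are said to be chosen with their values known. Every list's counts are given in the text. Promoter windows were those of RefSeq. Genes named without one include Tagln, Meox1, Hoxa4, Hoxb2, Hoxb3, Hoxb5, Hoxb6, Hoxb7, Hoxb9, Hoxc5, Hoxc6, Hoxc8, Hoxc9 and Hoxc10. The alternatives are named in the closing section.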

Additional observations from a re-analysis of the deposited data

Results flagged for a closer look

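Probe sets that no gene comparison used also differed between the cultures. Of 1121 probe sets with no gene name here that passed the same filter, 171 were called higher and 123 lower (limma). Of 518 with several gene symbols, 37 were higher and 30 lower. With each probe set tested by itself, 2419 of 18498 were higher and 1897 lower. Beside those shares, the shares called were slightly larger for probe sets with no gene name and smaller for those with several symbols.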

How the results depend on the processing

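The 1323 genes called higher numbered 1110 to 1327 and the 1043 called lower 868 to 1154 under 12 other settings: the ES arrays in the fit, the replicate number as a block, quantile normalization again, median centring, no filter, a filter at 6, values under 4 raised to 4, no intensity trend, a robust prior, array weights, probe sets averaged per gene, and no x_at or s_at probe sets. With each probe set tested by itself 2419 of 18498 were higher and 1897 lower, a count of probe sets and not of genes. Leaving out 1 array gave 1198 to 1430 higher and 1014 to 1108 lower. The replicate numbers did not pair the arrays: deviations of same-numbered arrays correlated at 0.05, 0.08 and 0.04, and with the replicate number as a block 1325 genes were higher and 1046 lower. Of 178 named genes that were called, 161 kept their call in every alternative where they were tested, 17 lost it in at least 1 and 5 with 1 array left out; 7 genes without a call gained one. None of the named genes reversed. Averaged over all probe sets of a gene, 33 of 172 called differences shrank by over 1; that of Acta2 was 3.24, because its other probe sets were at the floor. Without a filter the medians of lists with many members at the floor went to 0. A level under 4 gives only a bound, which limits the folds of 243 genes called higher and 198 called lower.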

Other observations

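Some of the largest differences lay outside the lineages above. Ifitm1, an interferon-induced membrane protein also found in early mesoderm, read 2.80, 2.84 and 2.43 without and 12.47, 12.78 and 12.81 with Cdx2 and FGF, at least 412-fold higher (limma, adjusted p 8.4e-08). Of 10 tested interferon-induced genes, 5 were called higher and 0 lower, among them Ifitm3 (3.39-fold), Ifitm2 (2.34-fold) and Ifit2 (7.01-fold). Cyp1b1, a cytochrome P450, read 2.57, 2.85 and 2.83 without and 11.31, 11 and 10.74 with Cdx2 and FGF and rose at least 129-fold. P3h2, a prolyl hydroxylase of collagens, rose at least 111-fold, and Ahnak, a large scaffold protein, rose at least 105-fold. Car4, a membrane-bound carbonic anhydrase, read 3.60, 3.55 and 7.30 without and 11.62, 11.53 and 11.69 with Cdx2 and FGF; its difference of 6.79 was 8.03 without motor neuron replicate 3, 6.18 without replicate 1 and 6.16 without replicate 2. Of 12 tested annexin and S100 genes, 8 were called higher and 0 lower. Anxa2 rose 67.1-fold, and its difference of 6.07 was 6.73 without motor neuron replicate 2. Anxa3 rose at least 23.1-fold and S100a6 at least 19.7-fold.

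Axon guidance genes moved both ways, with 6 of 27 called higher and 10 lower. Sema3c, a secreted semaphorin, read 3.16, 3.71 and 3.44 without and 10.27, 9.79 and 9.67 with Cdx2 and FGF, at least 60.2-fold higher, while the netrin receptor Unc5a read 12.38, 12.35 and 12.48 without and 6.41, 6.41 and 6.46 with Cdx2 and FGF, 62.9-fold lower, and the adhesion proteins Cntn2 and L1cam fell 39-fold and at least 26-fold. Runx1t1, a transcriptional corepressor, fell at least 96.7-fold, from 11.18, 10.61 and 10 to the floor. Dner, a neuronal Notch-like protein, fell at least 80.3-fold, Cdk5r2, an activator of the neuronal kinase Cdk5, fell 94-fold, and the glutamate receptor Grm2 fell at least 60.9-fold. Of 11 tested cadherins and protocadherins, 3 were called higher and 3 lower, with Cdh6 up 5.58-fold, Pcdh18 up 5.81-fold and Celsr3 down 8.21-fold. Over all tested genes 12.9% were called higher and 10.1% lower, so with 11 genes the list did not stand out clearly. Of 16 tested p53 and apoptosis genes, 2 were called higher, Perp (at least 23.2-fold) and Pmaip1 (at least 5.29-fold), and 0 lower. That count of rises is near the 12.9% of all tested genes called higher. Of 5 tested glial genes, 2 were higher (1 with the ES arrays in the fit) and 2 lower, of 5 pluripotency genes 2 were higher (Sall4, 5.17-fold, and Klf5, at least 4.44-fold) and 1 lower (Nr0b1, at least 3.52-fold), and of 5 endoderm genes 2 were higher and 2 lower (1 and 1 with values under 4 raised to 4). Lists of 5 or 2 tested genes are too small to set against the 12.9% higher and 10.1% lower of all tested genes. Of 2 tested blood genes 1 was lower and 0 higher. The embryonic globin Hbb-y read 7.92, 7.44 and 5.90 on the motor neuron arrays and was at the floor on the Cdx2 and FGF arrays (at least 8.51-fold lower); its difference of -4.92 was -5.52 without motor neuron replicate 3. Of 2 tested interneuron genes 1 was higher (Gata3), of 2 midbrain and hindbrain genes 1 was lower (Tbx20, 2.33-fold, a call lost with the mean of its probe sets, adjusted p 0.060), and the 1 tested endothelial gene, Egfl7, had no call.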
